A study of Mus musculus with 23 samples.

Results

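The 8 genes H2-K1, H2-D1, B2m, Tap1, Tap2, Tapbp, Nlrc5 and Erap1 encode central parts of major histocompatibility complex (MHC) class I antigen presentation. They were chosen by gene name, and each had 1 row among the 24475 genes of the expression table. RNA sequencing had been performed on 23 mouse samples, 1 library each, to ask how spontaneous T-cell acute lymphoblastic leukemia (T-ALL) differs from normal thymus and whether loss of Notch3 in the donor tissue alters the disease. Thymus from 6 normal C57BL/6 mice served as the control, and their age is not given in the sources used here. The leukemic samples were whole, unsorted spleens of BALB/c mice that lack Rag2 and Il2rg and had received a newborn thymus as a transplant. In 14 of them (WT T-ALL) the donor thymus was wild type and, by the study's methods, from CD45.1 congenic mice with a C57BL/6 background. In 3 of them (Notch3 KO T-ALL) the donor thymus lacked Notch3, in which β-galactosidase had been inserted in frame, and the background strain of these donors is not stated. All leukemic samples therefore share the host genotype and the transplantation, and tissue, host strain and transplantation cannot be told apart from leukemia in a comparison with thymus. Library numbers are those of the labels.

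MHC class I molecules display peptides from inside the cell to CD8 T cells. A polymorphic heavy chain (H2-K1, H2-D1) pairs with the invariant light chain β2-microglobulin (B2m). Peptides cut by the proteasome are pumped into the endoplasmic reticulum by the transporter TAP1/TAP2, trimmed by the aminopeptidase ERAP1 and loaded with the help of tapasin (Tapbp), and NLRC5 is the transcriptional activator of many of these genes. In the thymus most cells are CD4 CD8 double-positive thymocytes, which are known to carry less class I on their surface than mature T cells do.

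H2-K1 (gene 14972, 33996012 to 34000619), H2-D1 (gene 14964, 35263094 to 35267497), Tap1 (gene 21354, 34187556 to 34197225), Tap2 (gene 21355, 34204479 to 34216321) and Tapbp (gene 21356, 33919478 to 33929290) lie on chromosome 17 of assembly GRCm38.p6. B2m (gene 12010) lies on chromosome 2 from 122147687 to 122153082, Nlrc5 (gene 434341) on chromosome 8 from 94434335 to 94527272 and Erap1 (gene 80898) on chromosome 13 from 74639573 to 74693205. The annotation lists all 8 as protein-coding genes. The 250 bases upstream of a RefSeq start of both heavy chain genes and of B2m are printed here, because the heavy chains and their light chain did not move together in the leukemic samples. RefSeq gives H2-K1 a further start whose window, from 34000334 to 34000583, overlaps the printed one and held the same motifs. Sequences run 5′ to 3′ on the strand of the gene, and capitals mark the motifs searched.
H2-K1 (chr17:34000348-34000597, minus strand): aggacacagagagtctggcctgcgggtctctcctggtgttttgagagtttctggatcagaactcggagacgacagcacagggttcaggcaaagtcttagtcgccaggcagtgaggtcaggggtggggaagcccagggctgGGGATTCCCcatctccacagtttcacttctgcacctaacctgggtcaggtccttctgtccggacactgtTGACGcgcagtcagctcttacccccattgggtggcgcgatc
H2-D1 (chr17:35262844-35263093, plus strand): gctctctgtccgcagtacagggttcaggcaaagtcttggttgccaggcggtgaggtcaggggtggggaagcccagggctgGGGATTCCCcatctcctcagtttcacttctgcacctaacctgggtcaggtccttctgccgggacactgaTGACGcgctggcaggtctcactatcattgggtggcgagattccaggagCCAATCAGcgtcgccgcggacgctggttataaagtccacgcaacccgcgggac
B2m (chr2:122147437-122147686, plus strand): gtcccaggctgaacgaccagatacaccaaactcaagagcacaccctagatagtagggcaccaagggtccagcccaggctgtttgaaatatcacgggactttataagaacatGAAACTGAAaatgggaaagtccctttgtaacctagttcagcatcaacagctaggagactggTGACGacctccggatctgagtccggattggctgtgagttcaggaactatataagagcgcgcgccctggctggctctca
The motifs were a kappa B core (GGGATTCCC), an interferon response core (GAAANNGAA), a Y box core (CTGATTGG, CCAATCAG on the other strand) and an X2 core (TGACG), each on both strands. The kappa B core was present upstream of H2-K1 and H2-D1 and in 0.3% of 32851 RefSeq windows of the same length. B2m held the interferon response core (7.13% of windows) and no stretch with the exact letters of the kappa B core. The X2 core (17.77% of windows) was present in H2-K1, H2-D1, B2m and Tap1, and the Y box core (3.83% of windows) in H2-D1 and Tap1. Erap1 held the interferon response core and Tapbp none of the 4 motifs. Over their best aligned stretch of 177 bases the H2-K1 and H2-D1 sequences were identical at 161. Only these letters were searched, with no mismatch allowed, so variants of a motif were not marked, also where the printed sequences hold them. A match of letters, or the lack of one, is a description only.

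Values are log2(RPKM + 1) as deposited, with RPKM scaled by library to a 75th percentile of 10, and differences are between group means on that scale. A gene was called when its Benjamini-Hochberg adjusted p from limma, over all genes tested, was under 0.05. The number of genes at a scaled RPKM of at least 1 was 10154 to 11011 over the 23 libraries, and although the study's methods give a nominal number of reads per sample, the table holds no counts that would show the depth of each library. By library, the 10 double-positive thymocyte markers averaged 8.21 to 8.62 (thymus), 4.18 to 6.47 (WT T-ALL) and 4.82 to 6.89 (Notch3 KO T-ALL), and all 10 were lower in both leukemic groups at the threshold. General T cell markers, such as Cd3e and Lck, averaged 8.68 to 8.99, 7.82 to 8.85 and 8.19 to 8.51. Of these 6 markers 3 were called lower in WT T-ALL and 1 in Notch3 KO T-ALL, and 0 higher. Mature T cell markers, such as Il7r and Klf2, averaged 4.08 to 5.07, 2.89 to 4.74 and 2.19 to 3.17, and of 6 markers 3 were called lower and 1 higher in WT T-ALL and 5 lower in Notch3 KO T-ALL. H2-Ea-ps, a class II row that mice of the C57BL/6 haplotype are known not to transcribe and BALB/c mice are, lay between 0.0 and 0.28 in thymus and between 2.42 and 6.29 in every leukemic library. H2-L, the other row listed as a marker of the host strain, did not differ in the same way, with means of 0.80 in thymus, 0.70 in WT T-ALL and 0.69 in Notch3 KO T-ALL (limma adjusted p = 0.734 and 0.818 against thymus). Erythroid markers averaged 0.05 to 0.30, 2.57 to 6.09 and 5.12 to 7.22, macrophage markers 1.34 to 3.14, 2.22 to 5.94 and 4.73 to 5.62, and megakaryocyte markers 0.21 to 0.32, 0.93 to 4.87 and 3.68 to 4.91. Neutrophil markers averaged 2.33 to 4.38, 5.15 to 11.9 and 3.59 to 8.54, and 7 of 7 were called higher in WT T-ALL and 3 of 7 in Notch3 KO T-ALL. B cell markers averaged 0.72 to 1.55 in thymus and at most 0.25 in the leukemic libraries. The leukemic libraries thus differed from thymus in H2-Ea-ps, in erythroid, macrophage, megakaryocyte, neutrophil, B cell and T cell stage markers and in some general T cell markers. The part of these cells in each result was not tested. In such bulk samples fewer cells of a type and less RNA per cell cannot be told apart.

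In WT T-ALL, H2-K1, Tap1, Tapbp and Nlrc5 fell and B2m rose against thymus, so 4 of the 8 genes were called lower and 1 higher. Of 11919 genes tested, 22.3% were called lower and 29.3% higher. The median difference of the 8 genes was -0.66, beside 0.08 over all genes tested. H2-D1, Tap2 and Erap1 were not called.

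**Figure D1:**
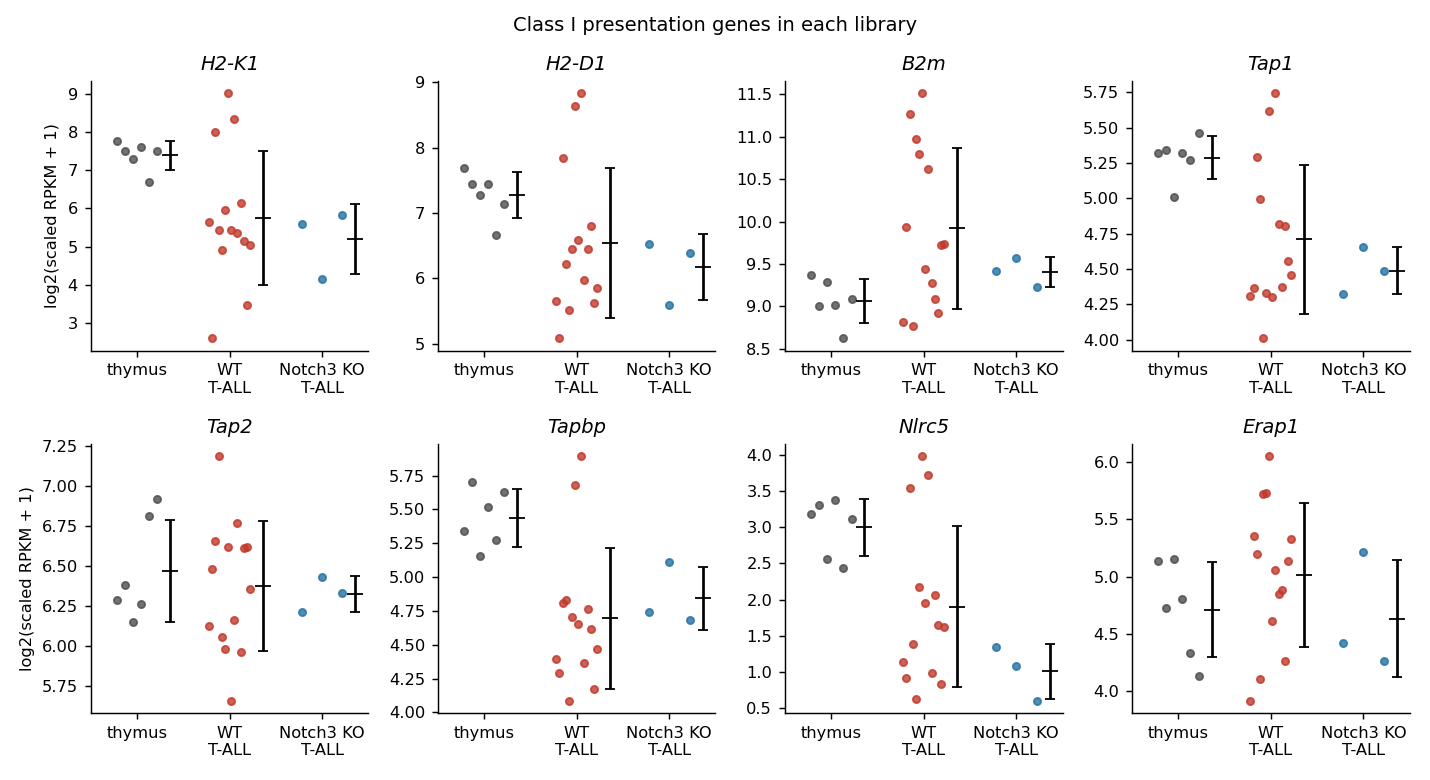
Each panel shows 1 gene as log2(scaled RPKM + 1) in the 6 thymus, 14 WT T-ALL and 3 Notch3 KO T-ALL libraries. Points are libraries, the short horizontal line is the group mean and the bar is 1 SD, and vertical axes differ between panels and do not start at 0. H2-K1 and Nlrc5 were below every thymus library in 11 of 14 WT T-ALL libraries and above every thymus library in 3.

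The heavy chain H2-K1 showed the widest spread of the 8 genes in WT T-ALL. Its thymus values were 6.69, 7.28, 7.50, 7.50, 7.60 and 7.76, with a median of 7.50. Its WT T-ALL values ran from 2.60 in library 4 through a median of 5.43 to 9.01 in library 48. In 11 of 14 WT T-ALL libraries H2-K1 was below every thymus library, and in libraries 5 (8.0), 110 (8.34) and 48 it was above every thymus library. The means were 7.39 ± 0.38 (SD, n = 6) and 5.75 ± 1.75 (SD, n = 14), a difference of -1.64 (SE 0.66, 95% CI -2.99 to -0.28, limma adjusted p = 0.0408), or 3.11-fold lower on this scale. The call was lost, at adjusted p = 0.0502 to 0.075, when any 1 of 14 libraries was left out (thymus 1, 2, 3, 4 or 6, or WT T-ALL 3, 4, 7, 14, 108, 111, 126, 128 or 202), with differences of -1.66 to -1.39. Without libraries 5, 48 and 110, picked by their values and so given with no test, the difference was -2.37.

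H2-D1, the other heavy chain, showed a similar pattern with a smaller span. Its thymus values ran from 6.66 through a median of 7.36 to 7.69, and its WT T-ALL values from 5.08 in library 4 through a median of 6.33 to 8.83 in library 110. In 10 of 14 WT T-ALL libraries it was below every thymus library and in the same 3 libraries above. The difference was -0.74 (SE 0.44, 95% CI -1.64 to 0.16, limma adjusted p = 0.159). It was called, at -0.92 with adjusted p = 0.0429, when library 110 was left out, and at -1.14 and -1.04 (adjusted p = 0.0242 and 0.0429) when libraries were scaled to equal totals or quantile normalized. Without libraries 5, 48 and 110 it was -1.26.

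The balance of the heavy chains within a library does not depend on how that library was scaled. H2-K1 divided by H2-D1 in scaled RPKM was 1.00 to 1.28 in thymus. It was 0.15 to 1.29 in the 14 WT T-ALL libraries and 0.35 to 0.68 in the 3 of Notch3 KO T-ALL. Libraries 4 and 128 stood lowest, at 0.15 and 0.21, and only libraries 5 and 48 of WT T-ALL lay within or above the thymus range. On the log2 scale H2-K1 minus H2-D1 averaged 0.11 ± 0.13 (SD, n = 6) in thymus and -0.79 ± 0.83 (SD, n = 14) in WT T-ALL. The difference of -0.90 had a two-sided exact permutation p of 0.0157 (0.0235 adjusted over the 3 comparisons of this ratio), and 12 of 14 WT T-ALL libraries were below every thymus library. In Notch3 KO T-ALL the mean was -0.98 ± 0.45 (SD, n = 3), a difference of -1.09 from thymus with all 3 libraries below every thymus library (exact permutation p = 0.0119, adjusted 0.0235), the smallest p that 84 splits allow. Between the T-ALL groups the difference was -0.19 (exact permutation p = 0.725). H2-K1 and H2-D1 are close paralogs, how reads matching both were assigned is not given in the sources used here, and reads of the BALB/c host alleles were mapped to a C57BL/6 reference, so this ratio is uncertain and its cause was not tested.

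B2m, the light chain shared by all class I heavy chains, was the most abundant of the 8 genes in every group. In scaled RPKM it was 393 to 661 in thymus, and the leukemic libraries held 434 to 2916 (WT T-ALL) and 598 to 762 (Notch3 KO T-ALL). Its log2 values were 8.62 to 9.37 in thymus, with a median of 9.05, and 8.76 in library 7 through a median of 9.73 to 11.51 in library 48 in WT T-ALL. In 9 of 14 WT T-ALL libraries it was above every thymus library and in none below all of them. The difference was 0.85 (SE 0.36, 95% CI 0.12 to 1.59, limma adjusted p = 0.0476), or 1.81-fold higher. The call was lost at adjusted p = 0.0518 to 0.105, with differences of 0.73 to 0.92, when any 1 of 17 libraries was left out (each of the 6 thymus and 3 Notch3 KO T-ALL libraries, or WT T-ALL 4, 5, 14, 36, 48, 110, 128 or 202). The difference was 0.44 (adjusted p = 0.228) with equal totals, 0.43 (adjusted p = 0.221) after a correction for GC content and transcript length, and 0.25 (adjusted p = 0.509) after quantile normalization.

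**Figure D2:**
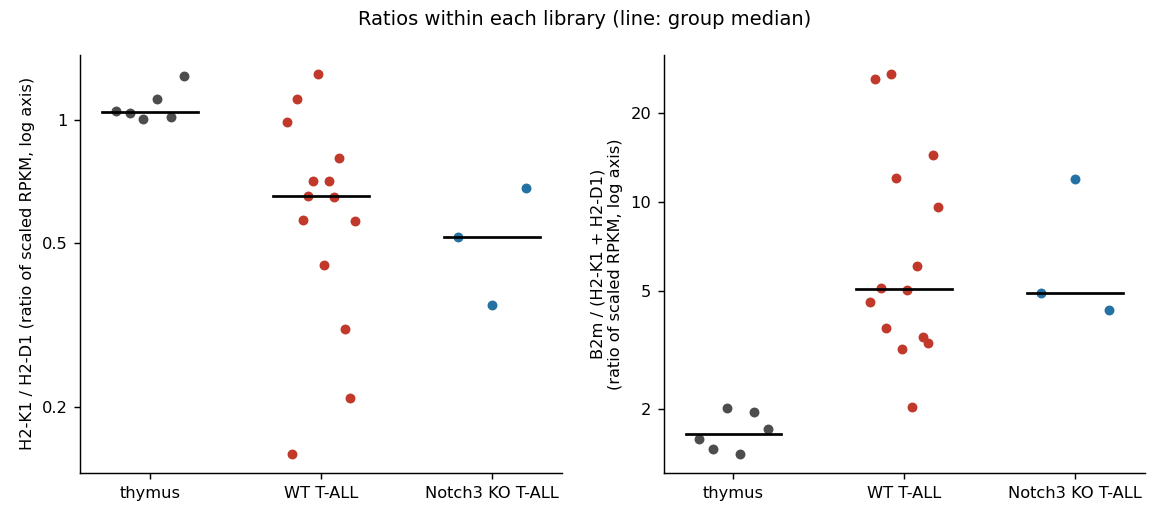
Ratios of scaled RPKM within each library, on logarithmic axes, with H2-K1 over H2-D1 on the left and B2m over the sum of H2-K1 and H2-D1 on the right. Points are libraries of the 3 groups and lines are group medians, which were 1.04, 0.65 and 0.52 for the first ratio and 1.64, 5.07 and 4.91 for the second.

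Set against its heavy chains, B2m stood higher in every leukemic library. B2m divided by the sum of H2-K1 and H2-D1 in scaled RPKM was 1.41 to 2.01 in thymus, with a median of 1.64. It was 2.02 in library 110 through a median of 5.07 to 27.1 in library 14 of WT T-ALL, and 4.30, 4.91 and 11.9 in Notch3 KO T-ALL. The groups did not overlap, although library 110 lay next to the highest thymus library. This ratio was computed after the values of the single genes had been seen and is given with no test.

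The peptide transporter subunits differed from each other in their values. Tap1 was 5.01 to 5.46 in thymus, with a median of 5.32, and 4.01 in library 14 through a median of 4.51 to 5.74 in library 110 in WT T-ALL. In 11 of 14 WT T-ALL libraries it was below every thymus library and in libraries 48 and 110 above. The difference was -0.57 (SE 0.20, limma adjusted p = 0.0215), and it stayed called when any 1 library was left out. Over 13 alternative settings it was -0.97 to -0.35, with limma adjusted p of 3.47e-05 to 0.748. The call was lost in 5 of them, the GC and length correction included. Tap2 was 6.15 to 6.92 in thymus, with a median of 6.33, and 5.65 through a median of 6.42 to 7.19 in WT T-ALL. Although 5 WT T-ALL libraries lay below every thymus library and 1 above, the difference was -0.09 (95% CI -0.46 to 0.27, limma adjusted p = 0.673). In scaled RPKM, which is per length, Tap2 stood above Tap1 in every group, at means of 89.4 and 38.2 in thymus and 85.1 and 27.0 in WT T-ALL.

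Tapbp, which encodes the chaperone tapasin, had the smallest adjusted p of the 8 genes. It was 5.16 to 5.70 in thymus, with a median of 5.43, and 4.08 in library 14 through a median of 4.63 to 5.90 in library 110 in WT T-ALL. In 12 of 14 WT T-ALL libraries it was below every thymus library and in library 110 above. The difference was -0.74 (SE 0.21, 95% CI -1.17 to -0.32, limma adjusted p = 0.00452), or 1.67-fold lower. Leaving out any 1 library kept the call, at differences of -0.83 to -0.69 and adjusted p of 0.000304 to 0.0147. Of 13 alternative settings 2 lost it.

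Erap1, the peptide trimming enzyme, was 4.13 to 5.15 in thymus, with a median of 4.76, and 3.92 in library 3 through a median of 5.09 to 6.05 in library 48 in WT T-ALL. In 6 of 14 WT T-ALL libraries it was above every thymus library and in 2 below. The difference was 0.30 (SE 0.26, 95% CI -0.24 to 0.84, limma adjusted p = 0.345), and with equal totals it was -0.10.

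Nlrc5, the activator, was the least abundant of the 8 genes. In thymus it was 2.43 to 3.38, with a median of 3.15. In WT T-ALL it was 0.62 in library 14 through a median of 1.64 to 3.99 in library 48. The values of WT T-ALL fell into separate clusters, with libraries 5 (3.54), 110 (3.73) and 48 above every thymus library and the other 11, at 0.62 to 2.17, below every thymus library. In scaled RPKM the medians were 7.88 in thymus and 2.11 in WT T-ALL, and the means 7.23 and 4.11. The log2 difference was -1.10 (SE 0.42, 95% CI -1.97 to -0.23, limma adjusted p = 0.0327), or 2.14-fold lower on the log2(RPKM + 1) scale. It was lost when thymus 1, 2, 4 or 6 was left out, at -1.08 to -1.02 with adjusted p = 0.0602 to 0.0707. It was also lost after correcting for GC content and length (-0.86, adjusted p = 0.104). Without libraries 5, 48 and 110 it was -1.60, given with no test.

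**Figure D3:**
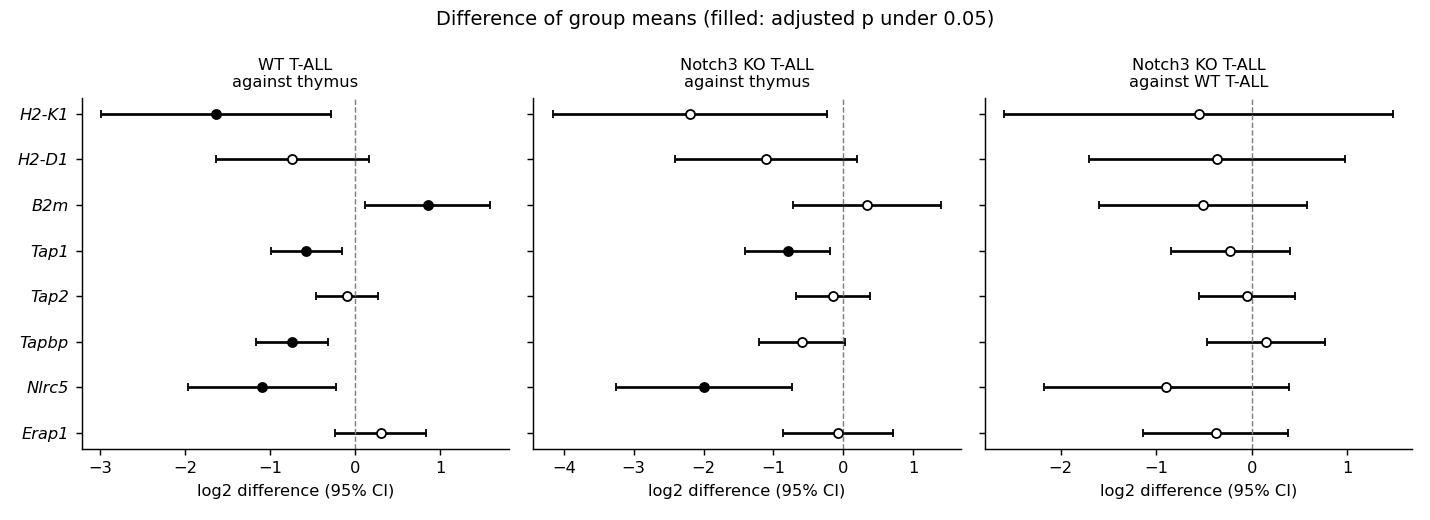
Differences of group means on the log2(scaled RPKM + 1) scale for the 8 genes in the 3 comparisons, with 95% confidence intervals from limma. Filled points have an adjusted p under 0.05, and the horizontal axes differ between panels. Filled points are H2-K1, B2m, Tap1, Tapbp and Nlrc5 on the left, Tap1 and Nlrc5 in the middle and none on the right.

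In Notch3 KO T-ALL, Nlrc5 and Tap1 fell against thymus, and none of the 8 genes was called higher. Of the 11919 genes tested, 16.3% were called lower and 21.2% higher in this comparison, which shares the thymus libraries with the one before. The median difference of the 8 genes was -0.70, beside 0.08 over all genes tested. Nlrc5 was 1.34, 1.08 and 0.59 in libraries 1, 2 and 3, all below the lowest thymus value of 2.43. In scaled RPKM the means were 7.23 in thymus and 1.05 in Notch3 KO T-ALL. The log2 difference was -1.99 (SE 0.61, 95% CI -3.25 to -0.73, limma adjusted p = 0.0132), or 3.98-fold lower on the log2(RPKM + 1) scale. It was -1.79 (limma adjusted p = 0.0717) without library 3. Tap1 was 4.32, 4.65 and 4.49, also below every thymus library. Its difference was -0.80 (SE 0.29, limma adjusted p = 0.0357), and the call was lost without thymus 1, 2, 4 or 6 or Notch3 KO T-ALL 1 or 3, at -0.80 to -0.72 with adjusted p = 0.0503 to 0.126.

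H2-K1 was 5.59, 4.14 and 5.84 in Notch3 KO T-ALL, below every thymus library, at a difference of -2.19 (SE 0.95, 95% CI -4.16 to -0.23, limma adjusted p = 0.0723). The call was gained when WT T-ALL 4 or 48, which enter the shared estimate of spread, was left out (adjusted p = 0.0432 and 0.0417). H2-D1 was 6.53, 5.59 and 6.39 at a difference of -1.11 (limma adjusted p = 0.173), and Tapbp 4.74, 5.11 and 4.68 at -0.59 (limma adjusted p = 0.121). For each of H2-K1, H2-D1, Tap1, Tapbp and Nlrc5 the 3 libraries lay below all 6 thymus libraries, and the exact permutation p of a single gene was 0.0119, the smallest that 84 splits allow. Of all 11919 genes tested, 18.4% lay below every thymus library in this way. When only the Notch3 KO T-ALL and thymus libraries were fitted, which leaves the wide spread of WT T-ALL out of the error, these 5 genes were called lower, beside 22.4% of all genes in that fit, with H2-K1 at adjusted p = 0.000425. B2m was 9.41, 9.58 and 9.23 at a difference of 0.34 (limma adjusted p = 0.626), which was -0.31 after quantile normalization and -0.12 with equal totals. Tap2 was 6.21, 6.43 and 6.33 and Erap1 4.42, 5.21 and 4.27, at differences of -0.15 and -0.08 that were not called.

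Between the T-ALL groups none of the 8 genes was called, and 0.617% of 11677 genes were, a count of 72 that ran from 3 to 205 when 1 library was left out. None of the 8 had an unadjusted limma p under 0.05 either. Nlrc5 showed the largest difference, at -0.89 for Notch3 KO T-ALL minus WT T-ALL (SE 0.61, 95% CI -2.17 to 0.39, limma adjusted p = 0.851). The value 0.59 in Notch3 KO T-ALL 3 lay below the lowest WT T-ALL library, and the other 23 values of the 8 genes in this group lay within the range of WT T-ALL. H2-K1 differed by -0.56 (95% CI -2.59 to 1.48), H2-D1 by -0.37 (95% CI -1.71 to 0.97) and B2m by -0.51 (95% CI -1.60 to 0.57). The intervals of Tap1 (-0.84 to 0.40), Tap2 (-0.55 to 0.45), Tapbp (-0.47 to 0.77) and Erap1 (-1.13 to 0.38) were narrower. With 3 libraries against 14, a difference in H2-K1 of the size seen against thymus lies inside its interval.

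Since only WT T-ALL has enough libraries, Nlrc5 was set against each of the other 7 genes within that group. Because libraries 5, 48 and 110 stand apart, relations are given over the other 11. Over these, Nlrc5 rose with Tapbp (Pearson r = 0.86, permutation p = 0.00136, adjusted over 7 relations 0.00952, Spearman rho = 0.85, adjusted permutation p = 0.00665) and with H2-D1 (r = 0.80, permutation p = 0.00405, adjusted 0.0142, rho = 0.85, adjusted permutation p = 0.00665). With H2-K1 r was 0.63 (permutation p = 0.0309, adjusted 0.072) and rho 0.77 (permutation p = 0.0076, adjusted 0.0177). With Tap1, B2m and Erap1 r was 0.05, -0.15 and -0.09, and with Tap2 -0.41, none with an adjusted permutation p under 0.05. Without the 2 libraries farthest from the median of Nlrc5, r was 0.80 for Tapbp and 0.78 for H2-D1 with an adjusted permutation p of 0.0536 for each, so that r passed the threshold only with them, while rho was 0.83 for each with an adjusted permutation p of 0.03. The points share the scaling of their library, and a different share of host cells would move several genes together, which was not tested.

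**Figure D4:**
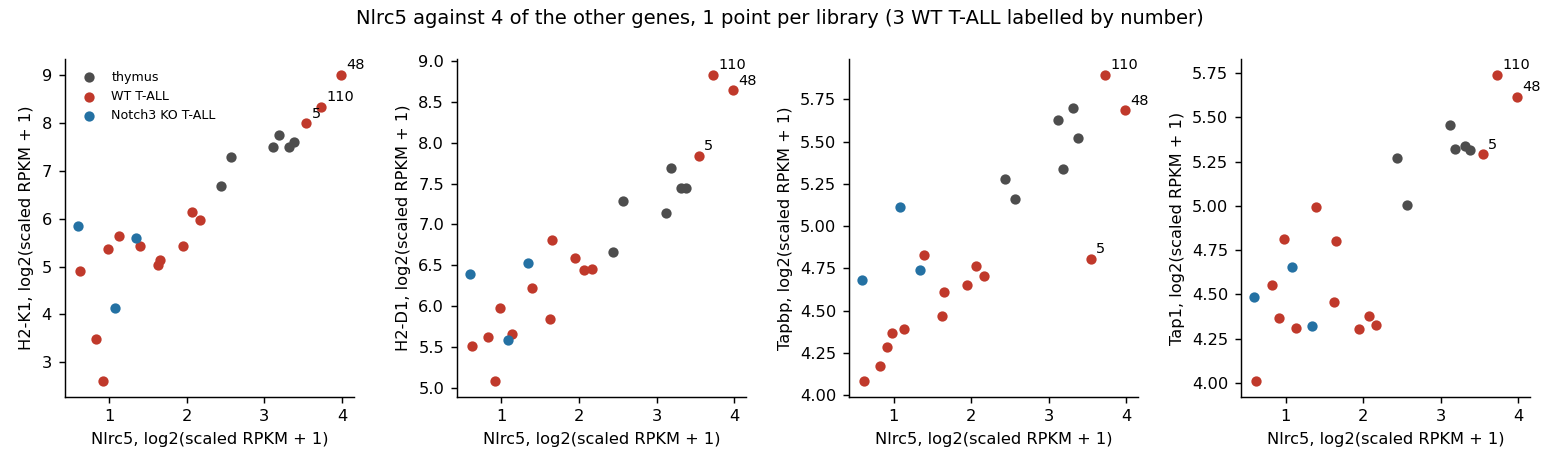
Nlrc5 on the horizontal axis against H2-K1, H2-D1, Tapbp and Tap1, all as log2(scaled RPKM + 1), with 1 point for each of the 23 libraries colored by group. WT T-ALL libraries 5, 48 and 110, labelled by number, lie at 3.54 to 3.99 of Nlrc5, beyond the thymus libraries, and the other 11 lie at 0.62 to 2.17.

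Libraries 5, 48 and 110 differed from one another outside these genes. Their double-positive thymocyte markers averaged 5.82, 6.20 and 4.18, against 4.26 to 6.47 in the other 11. Their neutrophil markers averaged 5.15, 6.56 and 11.9, against 5.43 to 10. Their macrophage markers averaged 2.71, 3.65 and 5.94, against 2.22 to 5.85, and H2-Ea-ps was 2.42, 5.01 and 6.29, against 2.83 to 5.51. Library 110 was thus the highest of WT T-ALL in neutrophil and macrophage markers and in H2-Ea-ps, and library 5 was the lowest in neutrophil markers and in H2-Ea-ps. Markers of the interferon response averaged 2.99, 4.23 and 3.72, against 1.90 to 2.99 in the other 11, 2.68 to 3.79 in thymus and 2.45 to 3.69 in Notch3 KO T-ALL. Against thymus, of these 10 markers 2 were called higher and 3 lower in WT T-ALL, beside 29.3% and 22.3% of all genes. In Notch3 KO T-ALL 1 was called higher and 2 lower, beside 21.2% and 16.3%. The part of these cells or signals in the high class I values was not tested.

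By the mean of the 8 genes, each scaled to unit SD over the 14 WT T-ALL libraries, the 5 most similar of 11911 other tested genes were Gm12185 (r = 0.95), Gm12250 (0.95), H2-Q7 (0.93), Tgtp1 (0.93) and Gbp10 (0.92). Libraries 5, 48 and 110 carry this likeness, since over the other 11 libraries r was 0.50, 0.46, 0.48, 0.39 and 0.27. H2-Q7, a nonclassical class I heavy chain gene, was 6.19, 5.73 and 5.52 in those 3 libraries, 0.05 to 2.47 in the other 11 and 2.97 to 3.70 in thymus. Each of the 8 genes is itself part of that mean, which raises its r by construction, so these r cannot be set beside those above. Over the 14 libraries, 5, 48 and 110 included, r with the mean was 0.93 for H2-D1 and Nlrc5, 0.89 for Tap1 and 0.87 for H2-K1 and Tapbp. It was 0.70 for B2m, 0.46 for Erap1 and 0.20 for Tap2.

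Of 53 other genes of the class I pathway, 52 passed the filter on low values in the comparisons with thymus. In WT T-ALL 15 of them were called higher and 17 lower, or 28.8% and 32.7%, beside 29.3% and 22.3% of all genes tested. With libraries scaled to equal totals 5 were called higher and 24 lower, beside 15.8% and 38.3% of all genes under that scaling. In Notch3 KO T-ALL 10 were called higher and 13 lower, or 19.2% and 25%, beside 21.2% and 16.3% of all genes tested, and with equal totals 4 and 21, beside 10.7% and 30.3% of all genes. With the erythroid covariate 0 were called higher in either group, and 2 and 1 lower, beside 3.87% and 0.319% of all genes called in either direction. Erythroid markers averaged at most 0.30 in thymus and at least 2.57 in every leukemic library. Since they separate the groups without overlap, that fit cannot tell erythroid content apart from the group difference. Between the T-ALL groups none of 51 was called, and 1, the nonclassical heavy chain row H2-T24, had an unadjusted limma p under 0.05. H2-T24 was 3.41, 4.89 and 5.92 in Notch3 KO T-ALL and 2.03 to 4.69 in WT T-ALL (difference 1.75, SE 0.50, limma adjusted p = 0.127). It was called with all groups in the fit (adjusted p = 0.0377) and without Notch3 KO T-ALL 1 (0.0241), WT T-ALL 108 (0.0362) or WT T-ALL 108 and 110 (0.0166).

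Genes of peptide production and of folding were called higher more often than lower in WT T-ALL, beside 29.3% of all genes called higher, but not with equal totals. There, where 15.8% of all genes were called higher, 0 of 5 genes of the immunoproteasome and its activator and 0 of 7 of loading were called higher, and 2 of 6 cytosolic peptidases were called higher and 2 lower. With the scaling as deposited, 4 of 5 genes of the immunoproteasome and its activator rose in WT T-ALL, a count that was 1 after the GC and length correction, 1 with the macrophage covariate and 0 with the erythroid covariate or the replicate block. Of all genes 52.1% were called in either direction after that correction and 35.6% with the macrophage covariate. With the erythroid covariate 3.87% were, and 18.4% with the replicate block. The 4 genes were the catalytic subunits Psmb9 (5.28 ± 0.29 in thymus and 5.97 ± 0.51 in WT T-ALL, difference 0.69) and Psmb10 (0.71) and the activator subunits Psme1 (0.62) and Psme2 (0.77), and in Notch3 KO T-ALL none of the 5 was called. Of 7 genes of loading in the endoplasmic reticulum, the chaperones Calr (0.71), Canx (0.60), Pdia3 (0.69) and Erp29 (0.52) rose and the aminopeptidase gene Lnpep fell (-0.86) in WT T-ALL. The same 5 genes moved the same way in Notch3 KO T-ALL, at 0.97, 0.86, 0.82, 0.90 and -1.24, but in that group 2 of the 7 were called higher after quantile normalization and 0 with equal totals or either covariate. Of all genes 37.6% were called in either direction in that group after quantile normalization, and 10.7% were called higher with equal totals. With the erythroid and macrophage covariates 0.319% and 18% were called in either direction. The chaperones named also fold many other glycoproteins. Of 6 cytosolic peptidases, Lap3 was called at 1.49 in WT T-ALL (3.24 ± 0.65 in thymus and 4.73 ± 0.31 in WT T-ALL, limma adjusted p = 2.7e-06) and at 1.43 in Notch3 KO T-ALL (limma adjusted p = 0.000592), Thop1 at 1.42 and 1.61 and Blmh at 0.73 and 0.55 in the 2 groups, while Npepps (-0.55) and Nrd1 (-0.37) fell in WT T-ALL.

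Regulators were called lower more often than higher. Of 15, 9 were called lower and 2 higher in WT T-ALL, and 6 lower and 1 higher in Notch3 KO T-ALL, where 22.3% and 16.3% of all genes were called lower and 29.3% and 21.2% higher. The counts called lower were 10 and 10 with equal totals, 0 and 0 with the erythroid covariate, 9 and 2 with the macrophage covariate, and 2 and 5 of 14 with the replicate block. Of all genes, 38.3% and 30.3% were called lower with equal totals. In either direction 3.87% and 0.319% were called with the erythroid covariate and 35.6% and 18% with the macrophage covariate. With the replicate block 18.4% and 33.5% were. Ifngr1, a chain of the interferon gamma receptor, had the largest fall of the regulators in WT T-ALL. It was 7.19 to 7.85 in thymus and 4.85 through a median of 6.02 to 7.21 in WT T-ALL, below every thymus library in 13 of 14 (difference -1.44, SE 0.30, limma adjusted p = 0.000349). The other chain, Ifngr2, fell by 1.01, and the interferon signaling genes Jak1, Jak2 and Irf9 and the factor Irf2 by 0.82, 0.49, 0.87 and 0.76. Rfxank, a subunit of the RFX complex that binds class I and class II promoters, fell by 0.99 in WT T-ALL and by 1.03 in Notch3 KO T-ALL. Irf8, a factor of myeloid and lymphoid cells, rose by 0.92 and 1.26 beside the higher macrophage markers given above, whose part was not tested. Irf1 (5.02 ± 0.12 in thymus, 5.31 ± 0.59 in WT T-ALL) was not called.

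**Figure D5:**
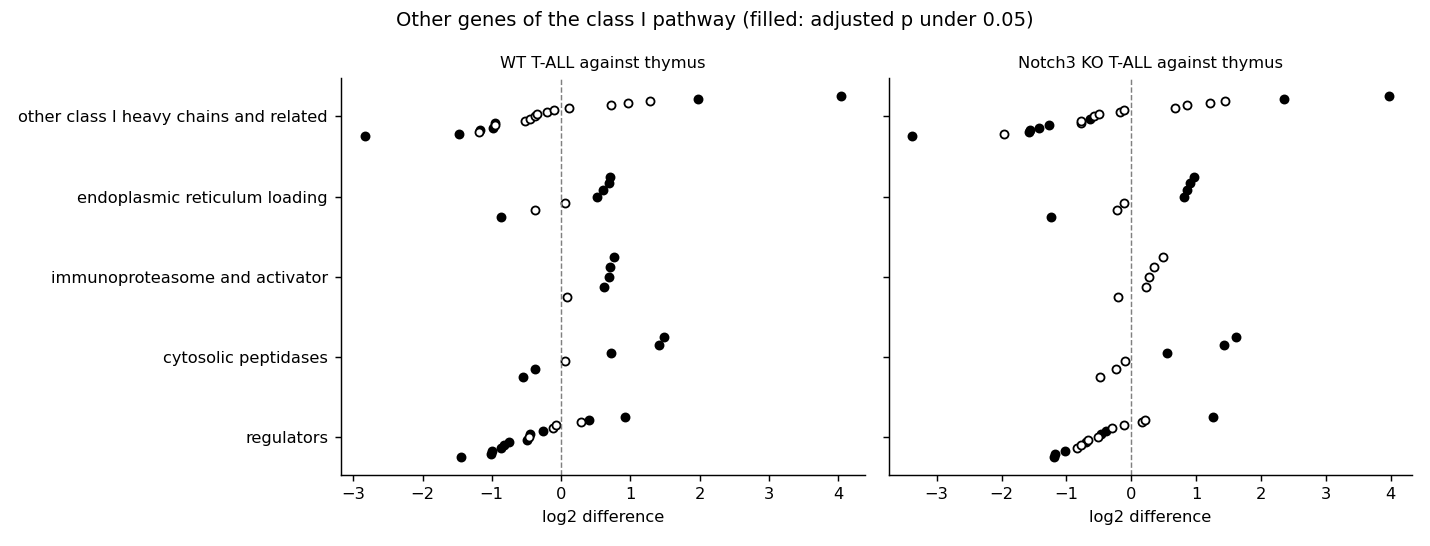
Differences of group means on the log2(scaled RPKM + 1) scale for the 52 tested genes of 5 lists, for WT T-ALL against thymus on the left and Notch3 KO T-ALL against thymus on the right. Each point is 1 gene, filled where the limma adjusted p was under 0.05. H2-T3 lies farthest to the right at 4.04 and 3.97, and Mr1 farthest to the left at -2.84 and -3.38.

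Among 19 tested other class I heavy chain genes and relatives, 2 were called higher and 5 lower in WT T-ALL and 2 higher and 6 lower in Notch3 KO T-ALL. The share called higher was 10.5% in each, beside 29.3% and 21.2% of all genes. The share called lower in WT T-ALL, 26.3%, was near the 22.3% of all genes, and in Notch3 KO T-ALL it was 31.6% beside 16.3%. H2-T3 encodes the thymus leukemia antigen, which thymocytes of some mouse strains display and those of C57BL/6 are known not to. It was 0.43 to 1.28 in thymus and 3.24 in library 120 through a median of 4.55 to 7.00 in library 202 in WT T-ALL, with no overlap. The share of all genes that separate in this way was not counted. The difference was 4.04 (SE 0.57, limma adjusted p = 5.6e-06). In Notch3 KO T-ALL it was 1.85, 6.26 and 6.12, at a difference of 3.97 (SE 0.83, limma adjusted p = 0.000748). The strain of the RNA was not resolved, and donor and host alleles cannot be told apart in these values. H2-Q10, known for its secreted product in liver, was 0.00 to 0.22 in thymus and 0.05 to 4.05 in WT T-ALL (difference 1.97, limma adjusted p = 0.0038). H2-Bl was called higher in Notch3 KO T-ALL at 2.36, with values of 0.18, 0.82 and 6.13, and without library 3 the difference was 0.48 (limma adjusted p = 0.561).

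Mr1, whose product presents vitamin B metabolites to a class of unconventional T cells, was the most reduced of these genes. It was 6.16 to 7.11 in thymus, 2.13 in library 3 through a median of 4.32 to 6.02 in library 36 in WT T-ALL, and 2.31, 5.05 and 2.94 in Notch3 KO T-ALL. Every leukemic library was below every thymus library, at differences of -2.84 (SE 0.54, limma adjusted p = 0.000163) and -3.38 (SE 0.78, limma adjusted p = 0.0018). In Notch3 KO T-ALL 18.4% of all genes tested lay below every thymus library, and the share in WT T-ALL was not counted. Cd1d1, whose product presents lipids and is known to be displayed by double-positive thymocytes, was 4.58 to 5.31 in thymus, with 2.66 to 4.35 (WT T-ALL) and 2.68 to 3.88 (Notch3 KO T-ALL) in leukemia (differences -1.48 and -1.58). These falls went with the fall of all 10 double-positive thymocyte markers, whose part was not tested. H2-K2, a further row of the K region, was 1.91 to 4.01 in thymus. It was 0.86 to 3.72 in WT T-ALL, below every thymus library in 10 of 14 (difference -0.98, limma adjusted p = 0.0166), and 1.07 to 1.56 in Notch3 KO T-ALL (difference -1.56, limma adjusted p = 0.013). H2-T23, which encodes Qa-1, fell by 1.17 and 1.27. Because these genes resemble one another in sequence, reads may be split between them, and their single values are uncertain to that extent.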

How the data were processed

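RNA was measured in 23 samples, each 1 library, grouped by their labels into thymus (n = 6), WT T-ALL (n = 14) and Notch3 KO T-ALL (n = 3). By the study's methods, stranded mRNA libraries were mapped to the mm10 transcriptome with OSA in ArrayStudio. The deposited values are log2(RPKM + 1), which the authors made from RPKM scaled to a 75th percentile of 10, as read from the values, so a difference understates the fold change of low genes. How reads shared by paralogs were assigned is not given in the sources used here. The labels give separate samples and no batch, and p-values measure the spread between these samples.

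Genes that reached a scaled RPKM of 1 in 3 or more fitted samples were tested with limma 3.58.1 in R 4.3.3 (trend and robust), with Benjamini-Hochberg adjustment over all of them and a threshold of 0.05. For comparisons with thymus, 1 fit held all 3 groups (11919 genes), while Notch3 KO T-ALL against WT T-ALL used those groups alone (11677 genes). The fits were tried on simulated data with known differences, which does not test how well they suit these libraries. The ratio of the heavy chains was tested by two-sided exact permutation, and correlations with 100000 permutations (scipy 1.17.1). Relations with Nlrc5 had been planned over all 14 WT T-ALL libraries and are given over 11, since 3 stood apart. Genes named were the 8, the 3 largest rises and 3 largest falls called per comparison among 53 other pathway genes, and the 5 most similar to the mean of the 8. Further pathway genes were named after their values were seen, to describe their list. The 8 genes, the lists and the tests were chosen with earlier results of these data known. Promoter windows and positions are from RefSeq and GENCODE M21 on GRCm38.p6, the build of mm10. Windows were found for 6 of the 8 genes, and Tap2 and Nlrc5 are not shown. Ahsp and H2-Ea of the marker lists were not used here. Alternatives were an offset of 0.1, other filters and scalings, covariates, other sample sets, a replicate block and leaving out each library, and those added after the values were seen were a GC and length correction (GC content known for 96.7% of tested genes) and leaving out WT T-ALL 5, 48 and 110 or 108 and 110.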

Additional observations from a re-analysis of the deposited data

How the results depend on the processing

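The 8 genes were recomputed under 13 alternatives for WT T-ALL against thymus, 11 for Notch3 KO T-ALL against thymus and 12 for the T-ALL groups, and without each library in turn, 792 values in all. Of these 677 kept their direction and side of the threshold, 73 lost a call, 18 gained one and 24 changed direction, none of the 24 being called under either setting. The cause of these changes was not tested. In WT T-ALL against thymus 5 genes were called, 1 without the filter on low values and 1 with a macrophage covariate (Tapbp in each), 0 with an erythroid covariate and 2 after the GC and length correction (H2-K1 and Tapbp). Of all genes 51.6% were called there, 25% without the filter and 52.1% after the correction. With the macrophage covariate 35.6% were called, and 3.87% with the erythroid covariate, which separates thymus from leukemia without overlap. With the erythroid and macrophage covariates H2-K1 was -1.98 and -1.89 (-1.64 without), Tapbp -0.95 and -0.82 (-0.74 without), Nlrc5 -1.01 and -1.14 (-1.10 without), B2m 1.02 and 1.04 (0.85 without) and Tap1 -0.35 and -0.60 (-0.57 without). Leaving out 1 library gave 2 to 5 calls. In Notch3 KO T-ALL against thymus 2 genes were called (37.5% of all genes called), 1 without the filter (Nlrc5, 19%) and 0 with the erythroid (0.319%) or macrophage covariate (18%). There were 5 with equal totals (40.9%), 5 when only these groups were fitted (48.9%), and 0 to 3 without 1 library. With the covariates Nlrc5 was -1.86 and -2.07 there (-1.99 without) and Tap1 -0.45 and -0.84 (-0.80 without). Between the T-ALL groups 0 were called under every alternative. Of all genes, 6150 were called in WT T-ALL against thymus and 461 with the erythroid covariate, and in Notch3 KO T-ALL against thymus 4475, 38 with the erythroid and 2149 with the macrophage covariate, and 2859 without Notch3 KO T-ALL 3. Between the T-ALL groups 72 were called, 39 with an offset of 0.1, 38 without the filter, 6 with a filter at 5, 10 and 40 with the erythroid and macrophage covariates, 254 with all groups fitted 157 without WT T-ALL 108 and 110, 158 without WT T-ALL 108, and 205, 3 and 12 without Notch3 KO T-ALL 1, 2 and 3.

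Equal totals moved the median of all genes by -0.34 and -0.39 in the comparisons with thymus, and quantile normalization moved it by -0.09 and -0.13. Directions changed for Erap1 in WT T-ALL (-0.096 with equal totals, -0.093 with the erythroid covariate), Tap2 in WT T-ALL (0.63 and 0.15 with the erythroid and macrophage covariates), B2m in Notch3 KO T-ALL (-0.31 quantile, -0.12 equal totals, -0.049 GC and length), Erap1 there (0.26 GC and length, 0.028 macrophage covariate, -0.37 to 0.10 without 1 library) and Tap2 there (0.95 and 0.25 with the covariates). H2-K2 there was 0.47 with the erythroid covariate. Between the T-ALL groups Tap2 was 0.30 and 0.061 with the covariates and -0.11 to 0.012 without 1 library. Without WT T-ALL 5, 48 and 110, H2-K1 was 0.18, H2-D1 0.15 and Tap1 0.0044 between these groups.

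Same-numbered samples came from separate mice, and their deviations from the group means did not pair them (r = -0.24 to 0.13 in WT T-ALL with thymus and -0.03 to 0.15 in Notch3 KO T-ALL with thymus), nor did every sample correlate best with its own number. With a replicate block over the 3 shared numbers, 0 of the 8 genes and 1942 of all genes were called in WT T-ALL (Tap2 at 0.014), and 5 of the 8 and 3630 of all genes, or 33.5%, in Notch3 KO T-ALL (Tap2 at 0.050). The T-ALL groups share 1 number, so no block could be fitted there.

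H2-K1 minus H2-D1 kept its calls with an offset of 0.1. Without 1 Notch3 KO T-ALL library it was -1.30 to -0.85 against thymus and -0.40 to 0.045 against WT T-ALL. Of the 7 relations with Nlrc5, 2 passed by Pearson r over 11 libraries, 5 over all 14, and 0 over 11 without the 2 farthest from the median, where r with Tap1 was -0.19. By Spearman rho 3, 3 and 2 passed. The table holds no counts, so no detection limit per library can be given.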

Other observations

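All 28 pairs of the 8 genes were compared over the 11 WT T-ALL libraries other than 5, 48 and 110, which was decided after the values had been seen. B2m and Erap1 gave the highest r, at 0.92 (Spearman rho = 0.95, permutation p = 7e-05 and 3e-05, adjusted over 28 pairs 0.00196 and 0.00084), and r was 0.92 without libraries 14 and 36, the 2 farthest from the median of B2m. After the GC and length correction r was 0.95. Tap1 and Tap2 gave r = 0.84 (rho = 0.83, permutation p = 0.00115 and 0.00252, adjusted 0.0113 and 0.0176), which was 0.65 without libraries 7 and 111. H2-D1 and Tapbp gave r = 0.79 (rho = 0.76, permutation p = 0.00517 and 0.0089, adjusted 0.029 and 0.0382), which was 0.88 without libraries 4 and 126. H2-K1 and H2-D1 gave r = 0.71 (rho = 0.65, permutation p = 0.00897 and 0.0369, adjusted 0.0419 and 0.129), which was 0.37 without libraries 4 and 128 and so rests on them. In these 11 libraries B2m had r = -0.65 with Tap1 and -0.21 with H2-K1, neither past the threshold after adjustment, and with Tap1 it was -0.42 without libraries 14 and 36 and -0.09 after the GC and length correction. After the same correction r was 0.81 for Tap1 and Tap2, 0.68 for H2-D1 and Tapbp and 0.72 for H2-K1 and H2-D1.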
